A study of Homo sapiens with 7 samples.

Results

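The regions described here were the intervals between convergent gene ends, where adjacent protein-coding genes on opposite strands run toward each other and their transcription end sites (TESs) lie at most 5 kb apart. They were chosen from the annotation alone, with the RefSeq gene table of GRCh38.p14, and no measured value entered the choice. Each region was the gap between the TESs plus 1 kb of gene body on either side. Of 17222 gaps between adjacent, non-overlapping protein-coding genes, 3750 were convergent at any length, and 1297 of these were at most 5 kb long and formed the set. The 1297 intervals had 2594 distinct boundary genes. Their TES distance had a median of 1414 bp, with quartiles of 492 and 2936 bp and extremes of 2 and 4997 bp, and the regions added up to 4.90 Mb, of which 2.31 Mb was gap. For comparison, 2062 tandem intervals (the end of one gene facing the start of the next on the same strand) and 1242 divergent intervals (start facing start) were built in the same way, and 51 gaps at most 5 kb long had no strand for a boundary gene and were left out.

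The study mapped RNA polymerase II whose C-terminal domain (CTD) carries phosphate on threonine 4 of its repeat (pThr4), by chromatin immunoprecipitation and sequencing (ChIP-seq) with the antibody 6D7, in HEK293, an established human embryonic kidney cell line. The 6 libraries compared came from HEK293 cells, for which the labels name no genotype change, and differed in what their nuclear lysate was treated with: 3 biological replicates received active SCP1 (SCP1 WT) and 3 received the D96A mutant of SCP1, which is catalytically inactive. The treatment is one of lysate, not of living cells, so the data describe which pThr4 the antibody reached rather than a response of cells to a phosphatase. An IgG control of the series has no list and was not analysed here.

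Each library was represented by 1 list of broad peaks with a fold enrichment and a −log10 p-value for each peak. Read counts are not part of the lists, which leaves the depth of each library unknown and allows no counting interval, so the only error is that between the 3 replicates of a group. The lists differed greatly in length: 12625, 6680 and 36892 peaks with active SCP1, against 2466, 1163 and 2699 with inactive SCP1, a ratio of 7.38-fold between the group means on the log scale. Lists of a single mark could not check the identity of the cell line. Names of peaks grouped replicates 1 and 2 apart from replicate 3 in both groups, for a reason not given in the sources used here.

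The CTD is a long series of repeats of a heptad, and its phosphates change as the polymerase moves along a gene. Phosphate on serine 5 marks early transcription, while pThr4 is known to accumulate past the polyadenylation site, where cleavage of the transcript and release of the polymerase take place. Antibodies to pThr4 can fail to bind where serine 5 of the same repeat is phosphorylated as well, and SCP1, a phosphatase, removes that neighbouring phosphate. At convergent gene ends the zones past both polyadenylation sites lie in the same stretch of DNA, so a peak there may come from either gene, and ChIP-seq without strand cannot tell them apart.

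Reference sequence of these gaps was at hand only where another gene starts inside one. Windows of 300 bases around a gene start were searched for, though not on every chromosome, so their counts do not cover all convergent gaps. Those found wholly inside a convergent gap numbered 12, in 11 gaps. Of these, 4 are printed because they show the range of coverage inside a gap: covered only with active SCP1, covered in both groups, passed over although its interval had a peak in every library, and without any peak. They come from the RefSeq promoter table of GRCh38.p14, are written 5′ to 3′ on the plus strand with CG dinucleotides in capitals, and each belongs to a long noncoding RNA gene.
SLFNL1-AS1 (chr1:41014340-41014639, CTPS1/SLFNL1 gap): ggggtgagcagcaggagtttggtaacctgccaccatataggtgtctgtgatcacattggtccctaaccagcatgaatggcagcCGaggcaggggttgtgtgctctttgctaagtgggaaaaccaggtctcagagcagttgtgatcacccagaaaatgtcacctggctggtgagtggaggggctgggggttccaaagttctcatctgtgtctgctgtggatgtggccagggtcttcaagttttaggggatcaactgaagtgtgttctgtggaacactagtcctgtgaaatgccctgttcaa
LOC100506281 (chr16:75226133-75226432, CTRB1/BCAR1 gap): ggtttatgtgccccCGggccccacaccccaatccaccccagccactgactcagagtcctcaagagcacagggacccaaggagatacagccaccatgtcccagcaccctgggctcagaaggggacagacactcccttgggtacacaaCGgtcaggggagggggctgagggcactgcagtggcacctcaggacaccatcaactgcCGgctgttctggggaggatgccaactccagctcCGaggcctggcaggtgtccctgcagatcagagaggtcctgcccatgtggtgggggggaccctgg
SNHG29 (chr17:16438737-16439036, TRPV2/LRRC75A gap): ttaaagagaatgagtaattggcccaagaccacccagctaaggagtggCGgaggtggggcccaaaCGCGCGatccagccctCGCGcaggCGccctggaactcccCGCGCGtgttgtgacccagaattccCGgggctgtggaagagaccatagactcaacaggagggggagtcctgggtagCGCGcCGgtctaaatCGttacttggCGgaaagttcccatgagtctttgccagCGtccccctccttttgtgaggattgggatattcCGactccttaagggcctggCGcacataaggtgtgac
IFITM3-AS1 (chr11:318210-318509, IFITM1/IFITM3 gap): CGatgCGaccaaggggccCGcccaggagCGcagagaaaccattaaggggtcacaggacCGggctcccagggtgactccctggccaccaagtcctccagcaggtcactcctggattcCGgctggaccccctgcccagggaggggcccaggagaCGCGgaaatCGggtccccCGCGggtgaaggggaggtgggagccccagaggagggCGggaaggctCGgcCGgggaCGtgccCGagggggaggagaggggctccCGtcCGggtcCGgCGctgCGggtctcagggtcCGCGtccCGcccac

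The window of SLFNL1-AS1 was covered by peaks over 100%, 34.3% and 100% of its bases in active SCP1 replicates 1, 2 and 3, and over 0% in each inactive SCP1 library. The window of LOC100506281 was covered over 100% in all 3 active SCP1 libraries and in inactive SCP1 replicate 3, and over 0% in the other two. The start of SNHG29, the host gene of several snoRNAs, lay in an interval with a peak in all 6 libraries, yet its window was covered only in active SCP1 replicate 3, over 24.3% of its bases. The window of IFITM3-AS1 was uncovered in all 6 libraries. These windows held 1, 4, 19 and 24 CG dinucleotides in the order printed, beside a median of 14 over 35116 promoters of the table. Of the 12 windows, 6 met a peak in at least 1 library. The letters AATAAA, which is also the usual polyadenylation signal, occurred on either strand in 1 of the 12 windows and in 17.4% of all promoters of that length, and TATAAA in 1 of 12 and 11.5%. Both motifs were searched on both strands, and a match to one may overlap a match to the other.

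The first comparison asked whether more convergent gene ends had a pThr4 peak when active SCP1 had been present. With active SCP1, 618, 483 and 802 of the 1297 intervals overlapped a peak in replicates 1, 2 and 3, which is 47.6%, 37.2% and 61.8%. With inactive SCP1, 281, 157 and 302 did, which is 21.7%, 12.1% and 23.3%. The groups did not overlap, and the means were 48.9% ± 12.3 (SD, n = 3) and 19.0% ± 6.04 (SD, n = 3). The ratio was 2.62-fold on the log2 scale, with p = 0.1 in a two-sided exact permutation test of 3 and 3 libraries, which is the smallest p this design allows. The ratio between libraries of the same number was 2.20, 3.08 and 2.66.

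Coverage moved further than the share of intervals. Peaks covered 21.99%, 16.2% and 32.9% of the bases of the intervals with active SCP1, against 7.33%, 3.64% and 7.65% with inactive SCP1, again without overlap between the groups. The ratio was 3.86-fold for whole regions and 3.48-fold for the gaps alone, each with p = 0.1 in the exact permutation test. Both ratios were smaller than the ratio of list lengths, and the convergent intervals took up a smaller part of the longer lists: 5.52%, 7.92% and 2.43% of the peaks with active SCP1 lay in them, against 11.96%, 13.9% and 11.7% with inactive SCP1. That share differed by −7.26 percentage points between the groups, with p = 0.1 in the exact permutation test. It did not differ detectably once each list was cut to its 1163 peaks of highest −log10 p, the length of the shortest list (14.3% and 14.4%, p = 1.0 in the exact permutation test), and differed by −0.88 points with −log10 p of at least 6 (p = 0.2). Tandem and divergent intervals, measured in the same lists, had coverage ratios of 4.63-fold and 7.70-fold, and ratios of 2.96-fold and 6.62-fold in the share with a peak.

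**Figure D1:**
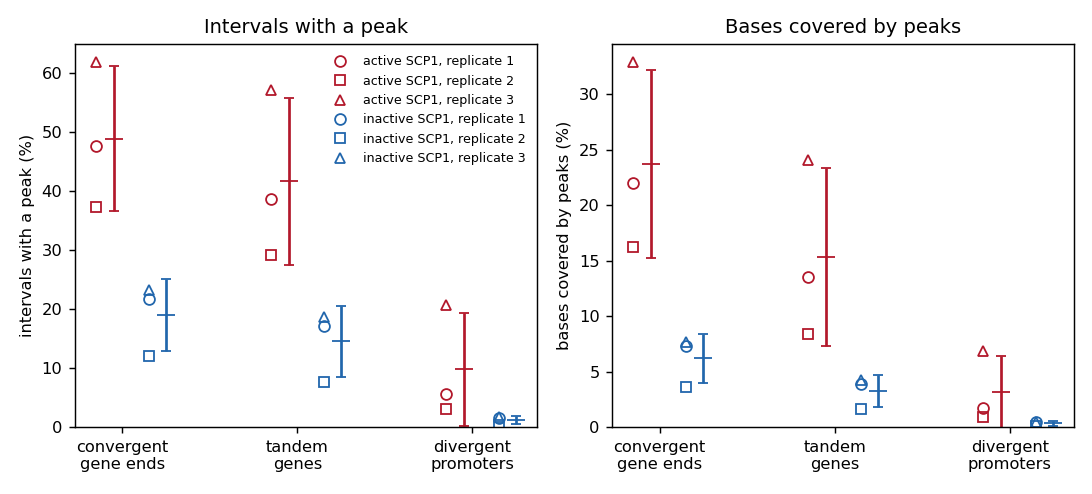
Share of intervals with a peak (left, percent) and share of bases covered by peaks (right, percent) in convergent, tandem and divergent intervals, 1 symbol per library (red, active SCP1; blue, inactive SCP1) with the group mean and SD beside it (n = 3), the lower arm of the SD stopping at 0. Convergent intervals run from 37.2% to 61.8% in the active SCP1 libraries and from 12.1% to 23.3% in the inactive ones, and the 2 groups do not overlap in either panel.

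The difference in the share of intervals with a peak moved with list length, and a difference in coverage remained when the lists were made equally long. In the lists of 1163 peaks each (equal peak number), 12.8% ± 0.364 and 12.5% ± 0.425 (SD, n = 3) of the intervals had a peak with active and inactive SCP1, and p was 0.5 in the exact permutation test. In those equally long lists the peaks still covered 8.33% ± 1.38 and 4.55% ± 0.796 of the bases (SD, n = 3), with p = 0.1 in the exact permutation test and no overlap between the groups. The log2 ratio of coverage was 0.88 there, beside 1.95 for the lists as deposited. Cutting a list kept the edges of its peaks as called, so differences between libraries in how widely peaks were called remain in this coverage. With peaks of −log10 p of at least 6 taken from every list, the shares were 17.8% ± 4.40 and 8.35% ± 2.16 and the coverage 11.3% ± 3.85 and 3.34% ± 1.08 (SD, n = 3), each with p = 0.1 in the exact permutation test. The share of intervals with a peak was therefore higher with active SCP1 as deposited and at a common p cutoff and was not detectably different at equal peak number, whereas coverage was higher under all 3 forms of the lists. Tandem intervals had this too: at equal peak number their coverage was 5.89%, 4.41% and 8.10% with active SCP1, against 3.02%, 1.65% and 3.16% with inactive SCP1.

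Peaks at convergent gene ends were broad, and broader with active SCP1. The median width of the peaks that met an interval with active SCP1 was 1996, 1849 and 2598.5 bp, against 1202, 1022.5 and 1365 bp with inactive SCP1. Peaks elsewhere in the same lists had medians between 739.5 and 795 bp in all 6 lists as deposited. At equal peak number the peaks elsewhere were wider with active SCP1 as well, at 1907, 1511 and 2530 bp against 1067, 781 and 1030.5 bp, so greater width was not limited to convergent ends. A broad peak is more likely to meet an interval of any kind, so tandem intervals served as a second reference: peaks in convergent intervals were 1.62-fold as wide as those in tandem intervals in the mean over libraries, in 6 of 6 libraries, with p = 0.031 in an exact sign-flip test over libraries. That ratio was 1.70-fold with active and 1.54-fold with inactive SCP1, with p = 0.4 in the exact permutation test for their difference. With equally long lists it was 2.68-fold and 1.72-fold, with p = 0.1 in the same exact test.

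Many of the broad peaks spanned both gene ends. Among intervals with a peak, 34.6% ± 4.43 (SD, n = 3) had a peak over both TESs with active SCP1, against 16.7% ± 2.37 with inactive SCP1. The share whose peaks lay wholly inside the gap was 16.2% ± 2.07 and 25.6% ± 4.85 in the same order. Neither measure overlapped between the groups, and each had p = 0.1 in the exact permutation test. At equal peak number the share with a peak over both TESs was 60.4% ± 9.51 and 21.4% ± 6.63, and with −log10 p of at least 6 it was 56.6% ± 7.16 and 26.6% ± 2.85 (SD, n = 3). Intervals covered along their whole length made up 17.2% ± 6.11 of those with a peak with active SCP1 and 4.34% ± 0.925 with inactive SCP1. Position and whole-length coverage were not measured for tandem or divergent intervals, and peaks elsewhere were also wider with active SCP1 at equal peak number. Nothing particular to convergent ends is therefore drawn from these shares.

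**Figure D2:**
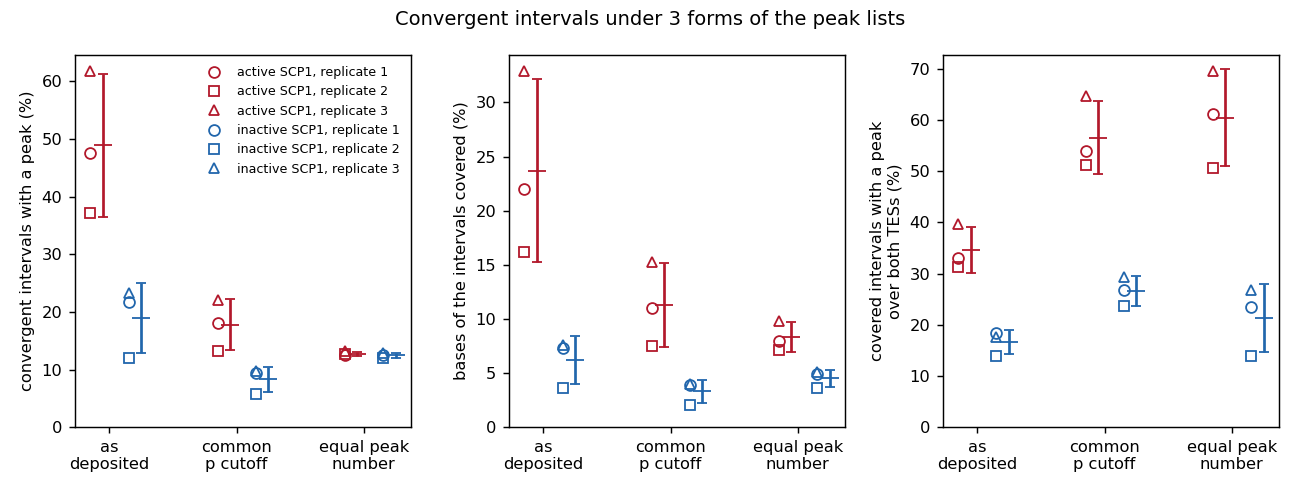
Convergent intervals under 3 forms of the lists (as deposited, peaks with −log10 p of at least 6, and 1163 peaks per list), showing the share with a peak, the share of bases covered and, among intervals with a peak, the share with a peak over both TESs (all percent). Symbols are libraries and bars are the group mean and SD (n = 3). In the left panel the groups meet at equal peak number (12.8% and 12.5%), and in the middle and right panels they stay apart.

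**Figure D3:**
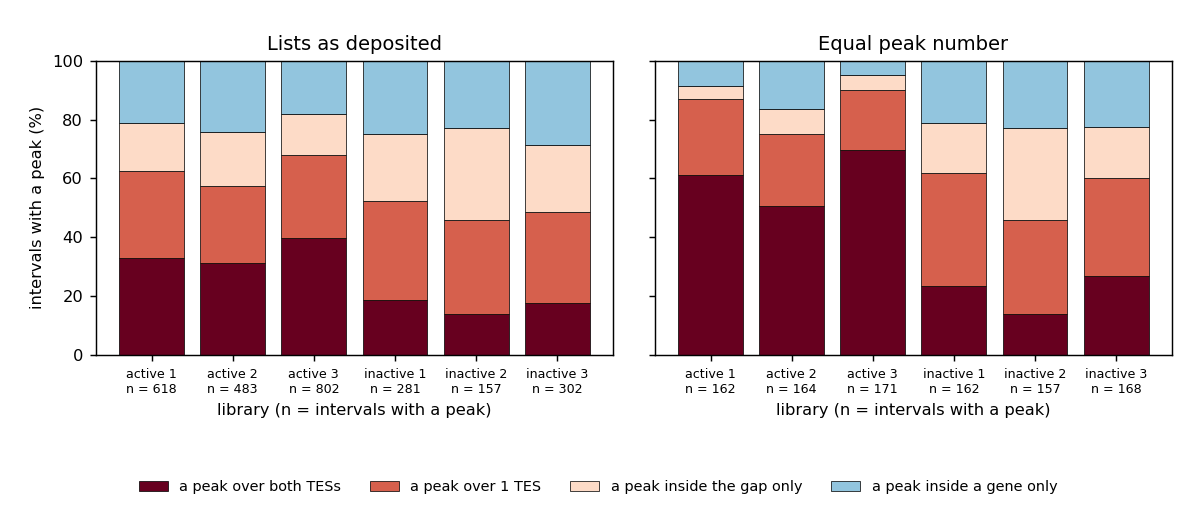
Position of the peaks in convergent intervals with a peak, in percent of those intervals for each library, for lists as deposited (left) and at equal peak number (right). Each interval counts once, in the order peak over both TESs, over 1 TES, inside the gap only, inside a gene only, and the darkest part is larger in every active SCP1 library than in every inactive SCP1 library.

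Intervals called with inactive SCP1 were nearly all called with active SCP1 too. Of 281, 157 and 302 intervals with a peak in inactive SCP1 replicates 1, 2 and 3, 98.2%, 98.1% and 99.0% had one in the active SCP1 library of the same number. The reverse shares were 44.7%, 31.9% and 37.3%. In the intervals called in both, peaks covered on average 68.9% of the region with active and 37.7% with inactive SCP1 in replicate 1, 68.7% and 33.5% in replicate 2, and 78.7% and 36.0% in replicate 3. Coverage was broader with active SCP1 in 243 of 276, 137 of 154 and 279 of 299 of them. All of these counts are from the lists as deposited, where the active SCP1 lists are longer and admit weaker peaks. They were not made for tandem intervals or for equally long lists, so nothing particular to convergent intervals is drawn from them.

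Counted over all libraries, 848 of the 1297 intervals had a peak in at least 1 library and 449 (34.6%) had none, beside 49.5% without a peak among all 4601 close gene intervals of the 3 kinds. Those 4601 include the convergent intervals themselves, and tandem intervals alone had 41.5% without a peak. A peak in at least 1 active SCP1 library was listed for 844 (65.1%), beside 50.4% of all close gene intervals, and in at least 1 inactive SCP1 library for 356 (27.4%), beside 18.2%. Of those 356, 315 had a peak in all 3 active SCP1 libraries. A peak in all 6 libraries was listed for 145 intervals, or 11.2%, beside 6.61% of all close gene intervals and 7.42% of tandem intervals. A peak in all 3 active SCP1 libraries and no inactive SCP1 library was listed for 129, or 9.95%, beside 6.72% of all close gene intervals and 8.29% of tandem intervals. The opposite pattern, all 3 inactive SCP1 libraries and no active one, did not occur. A single library made up a large part of the rest: 186 intervals had a peak only in active SCP1 replicate 3, the longest list. The count of 129 fell to 4 with lists of equal length and was 26 with −log10 p of at least 6. Without active SCP1 replicate 2, the shortest of the 3 active SCP1 lists, it was 247, though leaving out a library can only keep or raise this count. The covered share of an interval in every active SCP1 library exceeded that in every inactive SCP1 library for 366 intervals, or 28.2%, beside 18.1% of all close gene intervals. Among tandem intervals this held for 21.5%.

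Convergent intervals were compared with the other close gene intervals within each list, where list length is shared. Coverage of convergent intervals exceeded that of tandem intervals by 5.64 percentage points in the mean over libraries, and that of divergent intervals by 13.2, each in 6 of 6 libraries. Each had p = 0.031 in a two-sided exact sign-flip test over libraries, the smallest p that 6 libraries allow, and 0.0469 after Benjamini-Hochberg adjustment over 6 such comparisons. These differences were 2.06 and 6.02 points at equal peak number, and with −log10 p of at least 6 they were 2.48 and 6.78. By construction a convergent region holds the ends of both boundary genes, a tandem region the end of the upstream gene alone, and a divergent region the end of neither. The comparisons therefore cannot separate the arrangement of the genes from the number of gene ends in a region. The series describes lysate split into matched aliquots for the treatments, so libraries of the groups may share lysate, though the labels do not say which. The difference from tandem intervals was 8.35 ± 0.523 points with active and 2.93 ± 0.812 with inactive SCP1 (SD, n = 3), with p = 0.1 in the exact permutation test. It was 2.19 and 1.94 points at equal peak number, with p = 0.7 in the exact permutation test, so no difference between the groups was detectable there. As a ratio, coverage of convergent over tandem intervals was 1.63, 1.92 and 1.36 with active SCP1, against 1.87, 2.21 and 1.80 in the inactive SCP1 libraries, and these overlapped, with p = 0.3 in the exact permutation test. The order depended on the measure at equal peak number: the share with a peak was then lower in convergent than in tandem intervals in the 3 active SCP1 libraries (12.5% against 14.5%, 12.6% against 13.3% and 13.2% against 16.3%), while coverage was higher in convergent intervals in all 6.

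Around single gene ends the contrast with isolated ends was wider. Windows of 1 kb on either side of the TES held a peak at 39.9%, 30.7% and 53.3% of the 2594 convergent ends with active SCP1, and at 17.0%, 8.98% and 18.3% with inactive SCP1. At 7350 isolated ends, with no protein-coding gene within 20 kb downstream, the shares were 8.49%, 5.63% and 15.2%, and 2.80%, 1.497% and 3.13%. The difference was 21.9 percentage points in the mean, in 6 of 6 libraries, with p = 0.031 in the exact sign-flip test and 0.0469 after adjustment. It was 9.09 points at equal peak number (9.94 with active and 8.23 with inactive SCP1) and 9.83 with −log10 p of at least 6. Ends of the 2062 tandem intervals had a peak at 28.9%, 21.8% and 43.7% with active SCP1, and at 12.9%, 6.16% and 13.6% with inactive SCP1. Tandem ends thus lay below convergent and above isolated ends in each library, and no test was made of them. Windows of close convergent ends overlap, so 1 peak can count for both genes, and expression of the genes was not measured here, so a difference in transcription between the sets of genes cannot be told apart from their arrangement.

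**Figure D4:**
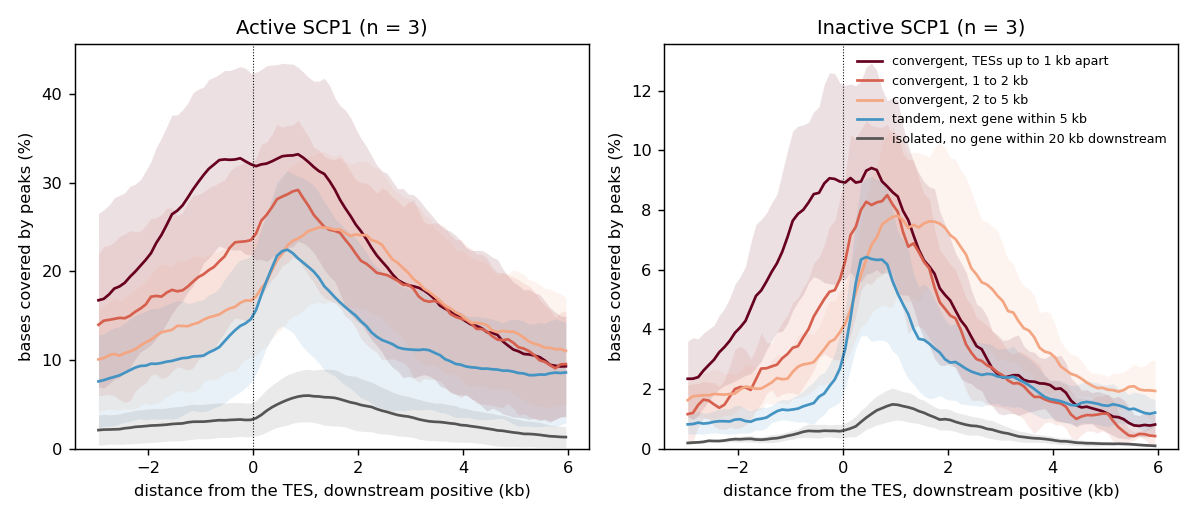
Share of bases covered by peaks (percent, 100 bp bins) around the TES of convergent, tandem and isolated gene ends, as the group mean with a band of 1 SD (n = 3), with active SCP1 on the left and inactive SCP1 on the right. The vertical scales differ between panels, and the isolated ends lie lowest in both, with maxima between 3.63% and 9.35% on the left and between 0.898% and 1.91% on the right.

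The profile around a convergent TES had its maximum downstream of it in each library, with a near plateau across the TES for the closest pairs, and in each library its maximum lay further out for TESs 2 to 5 kb apart than for TESs at most 1 kb apart. For ends at most 1 kb apart the maximum was 31.4%, 24.4% and 44.3% of bases covered with active SCP1, at 950, 850 and 550 bp past the TES. With inactive SCP1 it was 11.3%, 5.52% and 11.7%, at 450, 650 and 650 bp. For ends 2 to 5 kb apart the maximum lay between 1150 and 1550 bp with active SCP1, and between 950 and 1650 bp in the inactive SCP1 libraries, and at isolated ends it lay between 950 and 1450 bp in all 6 libraries. The position of a maximum past a TES of a close pair also holds the signal of the opposite gene.

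The distance between the TESs went with coverage more than with the share of intervals called. For the 329 intervals of at most 500 bp, peaks covered 34.3% ± 10.5 of the region with active and 9.92% ± 3.46 with inactive SCP1 (SD, n = 3). For the 137 intervals of over 4 to 5 kb they covered 15.2% ± 7.20 and 4.09% ± 1.08. Just outside the limit, the 96 intervals of over 5 to 6 kb were covered over 13.9% ± 6.45 and 2.25% ± 0.859. The share of intervals with a peak was 52.7% ± 11.2 and 44.8% ± 12.1 with active SCP1 in the shortest and longest of these classes within the limit, and 21.5% ± 7.03 and 17.5% ± 3.86 with inactive SCP1. Within each list the shortest class was the higher of the pair, in 6 of 6 libraries. The pair ranged from 13.4% against 13.1% in inactive SCP1 replicate 2 to 41.3% against 32.1% in active SCP1 replicate 2, and no test was made. The share did not fall steadily between these classes. For the 177 intervals of over 3 to 4 kb it exceeded that of the shortest class in active SCP1 replicate 3 (66.7% against 63.8%). The same held in inactive SCP1 replicates 1 (25.99% against 25.84%) and 3 (27.7% against 25.2%), while in the other libraries it was lower. Regions of longer gaps are longer, while the flanks have the same length in every class. Coverage of the flanks alone was 34.5% ± 10.4 with active and 9.98% ± 3.49 with inactive SCP1 in the shortest class. In the class of over 4 to 5 kb it was 11.8% ± 6.26 and 2.56% ± 0.173. What underlies the lower coverage was not tested.

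Inside the regions, the gap was covered about as much as the gene flanks with active SCP1 (23.7% ± 8.30 and 23.7% ± 8.61, SD, n = 3) and somewhat more with inactive SCP1 (6.88% ± 2.41 and 5.60% ± 2.06). Gap minus flank was 0.0490 ± 0.719 percentage points and 1.28 ± 0.355 in the same order, and positive in 4 of 6 libraries. Its mean over libraries of 0.66 had p = 0.125 in the exact sign-flip test and 0.15 after adjustment.

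Fold enrichment and −log10 p describe a peak within its own list, and with the depth unknown they cannot be put on a scale shared by the libraries. Within their own lists, peaks in convergent intervals had a median fold enrichment above that of the other peaks by 0.087 on the log2 scale in the mean, in 6 of 6 libraries, with p = 0.031 in the exact sign-flip test and 0.0469 after adjustment. That difference was 0.14 ± 0.056 with active SCP1 and 0.037 ± 0.029 with inactive SCP1 (SD, n = 3). At equal peak number it was −0.0082, and with −log10 p of at least 6 it was 0.00049. Against peaks in tandem intervals it was −0.0075, with p = 0.41 in the exact sign-flip test. That difference was larger and below 0 at equal peak number (−0.049), with −log10 p of at least 6 (−0.052), with −log10 q of at least 2 (−0.039) and within a TES distance of 2 kb (−0.051), each with p = 0.031 in the exact sign-flip test. The median over intervals of the highest fold enrichment was 3.71 ± 0.0721 and 3.95 ± 0.0484 with active and inactive SCP1 (SD, n = 3), and of the highest −log10 p 5.38 ± 0.124 and 5.79 ± 0.155. Each was lower with active SCP1 at p = 0.1 in the exact permutation test, and at equal peak number both turned the other way, by 0.35 and 1.56.

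The intervals with a peak in all 6 libraries, ranked by their lowest −log10 p, were led by NFE2L3/HNRNPA2B1 at chr7:26187138-26189926. HNRNPA2B1 encodes an RNA-binding protein of the hnRNP family and NFE2L3 a transcription factor. Its peaks reached −log10 p of 18.3, 17.7 and 16.7 with active SCP1, against 19.7, 15.2 and 18.4 with the inactive enzyme, and covered 90.3% to 100% of the region in the 6 libraries. The values of the groups overlapped. Here and below, −log10 p is given as listed and has no scale shared by the libraries.

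At DGCR8/TRMT2A the TESs lay 3 bp apart (gap chr22:20111873-20111874), and the region was covered whole in all 6 libraries. DGCR8 encodes the RNA-binding partner of Drosha in microRNA processing and TRMT2A a tRNA methyltransferase. The −log10 p was 32.0, 23.2 and 31.5 with active SCP1, against 16.5, 13.9 and 14.8 with inactive SCP1. All 3 active SCP1 values were above the inactive SCP1 values here, and the same held at CDT1/APRT (chr16:88809259-88809338), with 25.9, 18.8 and 19.0 against 13.4, 12.3 and 11.5. By rank within its list, the peak at DGCR8/TRMT2A stood at 7, 12 and 6 against 26, 31 and 37. At CDT1/APRT the ranks overlapped, at 10, 25 and 50 against 51, 39 and 85. CDT1 licenses replication origins and APRT salvages adenine, and their region, too, was covered whole in each library.

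TRIM41/RACK1 (chr5:181235809-181236896) pairs a ubiquitin ligase with a scaffold protein of the ribosome. It reached −log10 p of 12.3, 13.9 and 15.5 with active SCP1, against 15.2, 12.8 and 12.6 with inactive SCP1, which overlap. Its covered share was 100%, 70.8% and 100% against 65.0%, 68.1% and 65.7%, which do not. GAPDH/IFFO1 (chr12:6538372-6538960), with the glycolytic enzyme GAPDH, had −log10 p of 17.3, 13.5 and 16.3 against 13.4, 11.8 and 12.4, and covered shares of 77.9%, 74.0% and 100% against 63.7%, 71.8% and 85.9%. At GAPDH/IFFO1 the −log10 p as listed was higher in each active SCP1 library, while the covered shares overlapped. Its ranks within the lists overlapped as well, at 40, 70 and 80 with active and 50, 47 and 73 with inactive SCP1.

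NDUFB10/RPS2 (chr16:1961976-1962057) joins a subunit of respiratory complex I and a protein of the small ribosomal subunit, and had −log10 p of 15.8, 11.4 and 16.7 against 18.6, 10.5 and 12.9. PTBP1/PLPPR3 (chr19:812313-812487), with the splicing regulator PTBP1, had 18.1, 14.3 and 18.5 against 11.4, 9.85 and 12.6. ROMO1/RBM39 (chr20:35700981-35701346), with the splicing factor RBM39, had 14.8, 11.5 and 17.4 against 12.6, 8.38 and 9.22. The groups overlapped at NDUFB10/RPS2 and ROMO1/RBM39 and not at PTBP1/PLPPR3. RPL7L1/PEX39, with 16.1, 10.7 and 15.4 against 8.71, 10.7 and 13.2, and CDC42EP1/LGALS2, with 9.72, 9.48 and 12.4 against 8.62, 9.05 and 9.09, completed the 10.

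**Figure D5:**
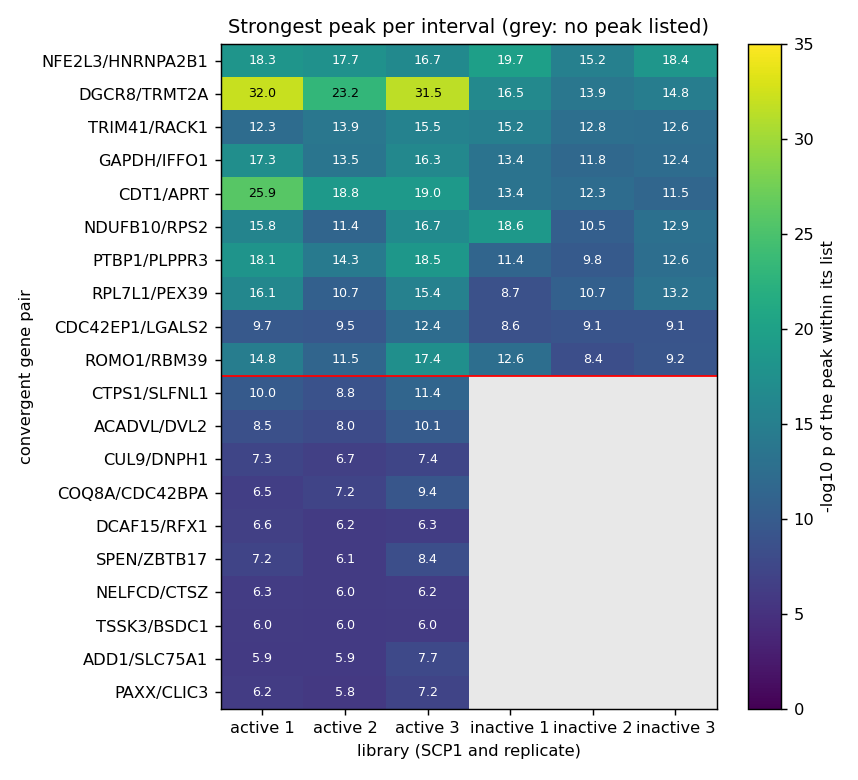
Highest −log10 p of a peak in each of 20 named convergent intervals (rows) and 6 libraries (columns, active and inactive SCP1 with the replicate number), grey where no peak was listed. The 10 rows above the red line were listed in all 6 libraries, from 8.38 to 32.0, and the 10 below in all 3 active SCP1 libraries alone, from 5.78 to 11.4.

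The intervals with a peak in all 3 active SCP1 libraries and none with inactive SCP1 were led by CTPS1/SLFNL1 (chr1:41012566-41015596), the interval that holds the start of SLFNL1-AS1 printed above. CTPS1 is a CTP synthase. Its −log10 p was 9.97, 8.80 and 11.4 in replicates 1, 2 and 3, and 55.0%, 40.9% and 60.2% of the region was covered. The rule required the absence of a peak with inactive SCP1, so that absence is no finding, and a place without a listed peak is below the cutoff of its list and not without signal.

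ACADVL/DVL2 (chr17:7225267-7225341), with an enzyme of mitochondrial fatty acid oxidation and a protein of Wnt signalling, had −log10 p of 8.49, 7.97 and 10.1 and was covered over 100%, 49.6% and 100%. CUL9/DNPH1 (chr6:43224588-43225628), with a cullin and a nucleotide hydrolase, had 7.27, 6.66 and 7.37. COQ8A/CDC42BPA (chr1:226987545-226989857), with a protein of coenzyme Q synthesis and a kinase, had 6.52, 7.18 and 9.42. In each of these 3 pairs the highest value was that of active SCP1 replicate 3.

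DCAF15/RFX1 (chr19:13961450-13961529), with a substrate receptor of a ubiquitin ligase and a transcription factor, was covered whole in all 3 active SCP1 libraries at −log10 p of 6.56, 6.15 and 6.30. SPEN/ZBTB17 (chr1:15940457-15941868), a pair of transcriptional regulators, had 7.23, 6.07 and 8.396. NELFCD/CTSZ (chr20:58995114-58995184) includes a subunit of the NELF complex, which holds polymerase near promoters, and had 6.28, 6.04 and 6.23. The covered share of NELFCD/CTSZ varied far more than its −log10 p, at 19.7%, 64.1% and 100%. TSSK3/BSDC1, ADD1/SLC75A1 and PAXX/CLIC3 followed, with −log10 p from 5.78 to 7.72.

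More inactive than active SCP1 libraries had a peak at 4 intervals, or 0.308%, beside 0.174% of all close gene intervals. These were C1orf146/GLMN in replicate 1 at −log10 p of 6.64, INSM2/RALGAPA1 in replicate 2 at 5.82, and FEM1B/ITGA11 and MFSD2B/WDCP in replicate 3 at 5.67 and 4.23. Each was listed in 1 inactive SCP1 library and in no active one, over 7.36% to 18.3% of the region.

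A short distance between TESs did not always come with a peak. Among the 449 intervals without a peak, the shortest were CTAGE4/ARHGEF35, PHF1/CUTA and SLC39A10/DNAH7, each with TESs 3 bp apart, then PRAC2/HOXB13 at 5 bp and CELA2B/CASP9 at 6 bp. They pair, among others, a Polycomb-associated protein (PHF1), a zinc transporter (SLC39A10), a homeobox factor (HOXB13) and an initiator caspase (CASP9).

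Gene families were counted by symbol, from 8 lists. Of 19 intervals with a cytosolic ribosomal protein gene, 15 had a peak in all 3 active SCP1 libraries and 12 in all 6, beside 444 and 145 of all 1297 intervals. At equal peak number 6 of the 19 had a peak in all 6 libraries, beside 71 of 1297. The list counts RPL7L1, a ribosome biogenesis factor named like the ribosomal proteins. RPL7A/SURF1 (chr9:133351427-133351757) pairs a protein of the large ribosomal subunit with an assembly factor of cytochrome oxidase. It reached −log10 p of 11.3, 8.67 and 11.3 with active SCP1, against 8.67, 7.69 and 6.11 with inactive SCP1.

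Of 11 intervals with a mitochondrial ribosomal protein gene, 2 had a peak in all 3 active SCP1 libraries and 0 in all 6. Among all convergent intervals 34.2% and 11.2% did. METTL25B/MRPL24 (chr1:156736961-156737302) was one of the 2, at −log10 p of 4.12, 4.41 and 3.82, and had no peak with inactive SCP1. MRPL40/C22orf39, the other, had 4.31, 5.00 and 5.80, and 4.96 in inactive SCP1 replicate 3 alone. CACYBP/MRPS14 was listed in active SCP1 replicates 2 and 3 and inactive SCP1 replicate 1.

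All 6 intervals with an SR or hnRNP protein gene had a peak in all 3 active SCP1 libraries, and 5 of the 6 in all 6 libraries. Over all convergent intervals these shares were 34.2% and 11.2%. RUFY1/HNRNPH1 (chr5:179610013-179614177) had −log10 p of 10.1, 8.34 and 12.8 against 8.12, 6.97 and 6.05 and was covered over 83.7%, 82.7% and 84.1% against 41.1%, 25.01% and 39.9%. HNRNPM/PRAM1 had 7.30, 6.84 and 10.6 with active SCP1, and 4.76 and 6.65 in inactive SCP1 replicates 1 and 3, and was not listed in replicate 2. The covered share was higher in each active SCP1 library than in each inactive one at both. In this list 2 of 6 intervals were still called in all 6 libraries at equal peak number, beside 71 of all 1297.

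Only 3 intervals held a gene of the cleavage, polyadenylation and termination list. SOD1/SCAF4, with SCAF4, a CTD-binding factor that acts against early polyadenylation, was listed in all 6 libraries, at −log10 p of 7.40, 7.48 and 6.12 against 5.12, 5.13 and 6.08. CSTF2/NOX1 and TMEM216/CPSF7, with subunits of the cleavage stimulation factor and of cleavage factor I, had no peak in any library.

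The other 4 lists had a peak in all 3 active SCP1 libraries at 10 of 18 intervals with an oxidative phosphorylation gene, 7 of 12 with a proteasome gene, 14 of 28 with a ZNF zinc finger gene and 19 of 56 with a solute carrier gene. A peak in all 6 was listed for 5, 2, 6 and 9 of them in that order. The shares over all convergent intervals were 34.2% in all 3 active SCP1 libraries and 11.2% in all 6. At equal peak number 2, 0, 4 and 3 of these intervals had a peak in all 6 libraries, beside 71 of 1297. The oxidative phosphorylation list includes assembly factors, such as NDUFAF8 of NDUFAF8/SLC38A10, which had −log10 p of 10.3, 10.8 and 14.5 against 8.44, 7.72 and 8.85. LSM14B/PSMA7, with a subunit of the proteasome core, had −log10 p of 6.03, 7.13 and 5.72 against 5.96, 5.50 and 6.90, yet was covered over 95.1%, 86.7% and 100% against 19.2%, 24.1% and 28.5%. At LSM14B/PSMA7 the height of the strongest peak thus overlapped between the groups while the breadth did not. ZNF771/DCTPP1 had 11.9, 8.79 and 10.1 against 7.45, 6.08 and 5.76. SLC6A8/BCAP31, with the creatine transporter, had 7.50, 7.10 and 10.8 against 6.78, 6.30 and 7.25. With 3 to 56 intervals in a list and no level of expression measured, nothing particular to a list is drawn from these counts.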

How the data were processed

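Broad peak lists of pThr4 ChIP-seq from 6 HEK293 libraries were used, with groups taken from GEO's labels. The authors deposited, beside the coordinates of a peak, its fold enrichment (a ratio) and the −log10 of its p-value, both used here. The deposited −log10 q-value served 1 alternative cutoff, and the deposited score was not used. Per the labels, the lists use hg38 and the processing named FastQC, cutadapt 4.6 and Bowtie2 2.5.2. The peak caller, its control and the read filters are not given in the sources used here, and the given paper describes another phosphatase, so no method was taken from it. Peaks had been called per library, and each list has its own lowest −log10 p (3.08 to 4.60), so longer lists admit weaker peaks.

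Genes came from RefSeq GRCh38.p14 (19974 protein-coding genes on chromosomes 1 to 22 and X). Strand came from the RefSeq promoter table for 15812 and, by symbol and chromosome, from GENCODE 44 mapped to GRCh37 for 3862, whose coordinates were not used, and 300 had none. Where both gave a strand, 70 of 15407 disagreed and RefSeq was used. An overlap of 1 bp counted as a peak. Of the intervals, 415 had a gene with strand from GENCODE alone, 39 held the start of a protein-coding gene (starts of other genes were not counted) and 28 had a gene shorter than the flank.

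Groups were compared by two-sided exact permutation of 3 and 3 libraries (7 comparisons, smallest p 0.1), and measures within lists by exact sign-flip over 6 libraries (6 comparisons, Benjamini-Hochberg adjusted). Tests of peak width, of peak position and of the list forms were made beside these comparisons and were not adjusted. Scripts were tested on simulated data. Named intervals were up to 10 listed in all 6 libraries and 10 in all 3 active SCP1 libraries alone, by lowest −log10 p, up to 5 listed in more inactive than active SCP1 libraries, up to 5 unlisted with the shortest gap, and up to 3 for each gene list, of which the text gives a selection. Members and lists were chosen with earlier results of these data known. Alternatives were equal peak number, p and q cutoffs, overlap, flank, distance, annotation filters, each library left out, replicates 1 and 2 only, and a replicate block. Equal peak number and the p cutoff were also used for peak position, width and gene lists, an addition made after seeing the data. Python 3 with pandas and numpy was used.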

Additional observations from a re-analysis of the deposited data

How the results depend on the processing

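Over 18 alternatives, the log2 ratios of share with a peak, region coverage and gap coverage between active and inactive SCP1 kept their sign. The group differences in the share of intervals with a peak and in the share of the list, and the differences from tandem, divergent and isolated sets, were smaller at equal peak number, as given above. At equal peak number the median fold enrichment differed by 0.35 and the median −log10 p by 1.56, both reversed, and the latter by 0.16 with −log10 p of at least 6. Fold enrichment against the other peaks was −0.0082 at equal peak number, and lost its call at −log10 p of at least 6 (0.00049), −log10 q of at least 2 (0.029), a 2 kb limit on TES distance (0.087) and replicates 1 and 2 only (0.069). Gap minus flank coverage was −0.015, −0.40 and −1.31 percentage points at equal peak number, the p cutoff and a 10 kb limit, and 2.18 (p = 0.031, exact sign-flip) with 2 kb flanks. Intervals listed in all active SCP1 libraries alone numbered 4 and 26 of 1297 at equal peak number and the p cutoff, beside 129 as deposited. A 2 kb limit gave 80, but it also leaves fewer intervals in the set, so that count is not comparable with 129. With replicates 1 and 2 only, coverage minus tandem was 5.41, minus divergent 11.5, and the TES window minus isolated ends 19.6, where 4 libraries allow no p under 0.125.

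Leaving out 1 library at a time gave 1.09 to 1.57 for the log2 ratio of the share with a peak, 1.60 to 2.19 for region and 1.46 to 2.03 for gap coverage, −0.28 to −0.21 for median fold enrichment, −0.47 to −0.32 for median −log10 p and −8.57 to −5.83 points for the share of the list. It gave 0.064 to 0.10 for fold enrichment against the other peaks, 0.49 to 0.92 for gap minus flank, 5.01 to 6.37 and 10.6 to 15.1 points for coverage minus tandem and minus divergent, 18.7 to 24.8 for the TES window minus isolated ends, −0.39 to −0.14 for the ratio to tandem coverage, and 130 to 247 intervals in active SCP1 alone, the highest without active SCP1 replicate 2. That last count can only stay or rise when a library is left out, since the rule then asks for fewer libraries. With 5 libraries no sign-flip p can be under 0.0625, so lost calls there follow from the number of libraries.

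Whether replicate numbers pair the libraries was not settled by the check used. Deviations correlated only weakly between same-numbered libraries, at 0.0352, 0.136 and 0.0811, although each correlated best with its own number. With the replicate block, the values of 0.087, 5.64, 13.2 and 21.9 for fold enrichment against the other peaks, coverage minus tandem, minus divergent and the TES window lost their calls, at p = 0.25 in an exact sign-flip test over 3 pairs, the smallest they allow. Depth is unknown, so the lists limit what an unlisted interval can show.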

Other observations

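The share of convergent intervals with a peak varied between chromosomes. It was highest on chromosome 16, at 70.6% ± 13.0 with active and 32.8% ± 6.84 with inactive SCP1 (SD, n = 3, 67 intervals), followed by chromosome 17 at 65.2% ± 11.8 and 30.5% ± 9.05 (94 intervals) and chromosome 20 at 65.0% ± 13.4 and 26.8% ± 8.79 (41 intervals), among chromosomes with at least 40 intervals. It was lowest on chromosome 3, at 32.3% ± 5.32 and 7.58% ± 4.01 (66 intervals). Chromosomes differ in gene density and no test was made.

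Intervals with a gene under 10 kb had a peak in 52.6% ± 13.0 with active and 22.5% ± 6.63 with inactive SCP1 (SD, n = 3, 627 intervals), beside 45.5% ± 11.7 and 15.7% ± 5.50 where both genes were at least 10 kb (670 intervals). Their median gaps were 1077 and 1683 bp. The 39 intervals that held the transcription start site of a protein-coding gene had a peak in 36.8% ± 20.7 and 13.7% ± 7.40, and the 75 with another gene in the gap in 52.0% ± 16.0 and 22.7% ± 8.11. No test was made of these splits.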
